A study of Mus musculus with 12 samples.

Results

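The transcripts of 9 genes were followed in mouse fibroblasts: the Src family kinases Src, Fyn, Yes1 and Lyn, their inhibitor Csk, the focal adhesion kinases Ptk2 and Ptk2b, and the adhesion adaptors Bcar1 and Pxn. The genes were taken by symbol from a count table of 54447 features, and each symbol matched 1 row. RNA was sequenced from NIH3T3 cells, a mouse embryonic fibroblast line, that had been stably infected with a lentivirus carrying a His-tagged N-VEGF or NLS-N-VEGF sequence under a promoter induced by doxycycline (dox). N-VEGF stands for the N-terminal stretch of the long VEGF isoform, and in NLS-N-VEGF that stretch is fused to the nuclear localization sequence of Cas9. The 12 libraries formed 4 groups of 3, namely uninduced and dox-induced NLS-N-VEGF cells and uninduced and dox-induced N-VEGF cells (called uninduced and induced). The cells were selected populations and not single clones, and dox was given only to cells that carried a construct, so the effect of dox itself and that of the induced protein cannot be told apart. Nothing in the labels says that the libraries of a group came from separate cultures, so p-values measure the spread between these libraries, which may be technical.

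Src family kinases are tyrosine kinases anchored to the inner face of the plasma membrane. Csk phosphorylates a tyrosine in their tail, and the tail then folds back and holds the kinase closed. At focal adhesions, where integrins tie the matrix to actin, the kinase FAK (Ptk2) phosphorylates itself and so offers a docking site to Src, and the pair then phosphorylates the scaffolds Cas (Bcar1) and paxillin (Pxn), on which further signalling proteins gather. Src, Fyn and Yes1 are found in most tissues, whereas Lyn and the FAK relative Pyk2 (Ptk2b) are best known from blood cells and, for Ptk2b, from neurons. These enzymes are switched by phosphorylation, which read counts do not measure.

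The titles end in 1 of 2 suffixes whose meaning the labels do not state, 1 as in the title NLS1_120519 (called suffix A) and the other called suffix B. Each group held libraries 1 and 2 of suffix A and a library 2 of suffix B. Total counts per library lay between 13549331 and 18982127, so 3 counts, taken as the smallest level that the depth could show, were worth 0.158 to 0.221 counts per 1000000 (CPM) before scaling. Levels are given as CPM after TMM scaling of the library sizes. Between the suffixes, 6207 of 13608 tested genes differed (45.6%), and the suffix was balanced over the groups. Library 1 of uninduced N-VEGF cells had the fewest genes detected (19976, against 20947 to 22889 in the others), and values of Src, Yes1 and Ptk2b that rest on it are also given without it. The insert of the construct held 5 to 12 counts per library without dox, 35 to 173 in induced NLS-N-VEGF cells and 121 to 268 in induced N-VEGF cells, in the direction of the labels. All 10 fibroblast markers were detected, with a summed level between 11610 and 14570 CPM. Of 8 blood cell markers 3 had a mean of at least 1 CPM (Cd68, Csf1r and Itga2b), while Ptprc, which defines leukocytes, had a mean of 0.0787 CPM. The other lists held 6 endothelial markers, summing to 2.71 to 4.48 CPM, and 6 epithelial markers, summing to 2.03 to 3.78 CPM. No marker sum separated the libraries with dox from those without it.

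Per length, measured as CPM per kilobase of exon, the 9 genes fell into an abundant set of 7 and a scarce set of 2. Fyn had the highest mean level (18.7 ± 1.19 CPM per kilobase, SD over 12 libraries), followed by Csk (18.2 ± 2.35), Src (13.8 ± 2.81), Ptk2 (12.6 ± 0.441) and Bcar1 (11.6 ± 0.766). Pxn had 8.61 ± 0.962 CPM per kilobase and Yes1 had 5.53 ± 0.732. Neighbours from Fyn down to Bcar1 overlapped in their ranges over the libraries. Fyn was above Csk in 7 of the 12 libraries, Csk above Src in 11, Src above Ptk2 in 7 and Ptk2 above Bcar1 in 10. The order of Src and Ptk2 went with dox. Without dox the means of Src were 10.7 (NLS-N-VEGF) and 11.9 (N-VEGF) CPM per kilobase, below 12.3 and 12.5 for Ptk2. With dox they were 15.8 and 16.7, above 13.0 and 12.8 for Ptk2. Bcar1 was above Pxn, Pxn above Yes1 and Yes1 above Ptk2b in all 12 libraries, with no overlap of their ranges. Ptk2b (0.173 ± 0.0626 CPM per kilobase) and Lyn (0.0498 ± 0.0457) were far lower. Ptk2 varied least over the 12 libraries, with a coefficient of variation of its CPM of 3.49%, against 20.4% for Src and 36.2% for Ptk2b. The order by mean did not change with unscaled library sizes. The length was that of all annotated exons of a gene merged, and no other length was tried. By CPM without the length, Ptk2 had a mean of 149.2 and Fyn of 81.7, so the order depends on the length used.

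**Figure D1:**
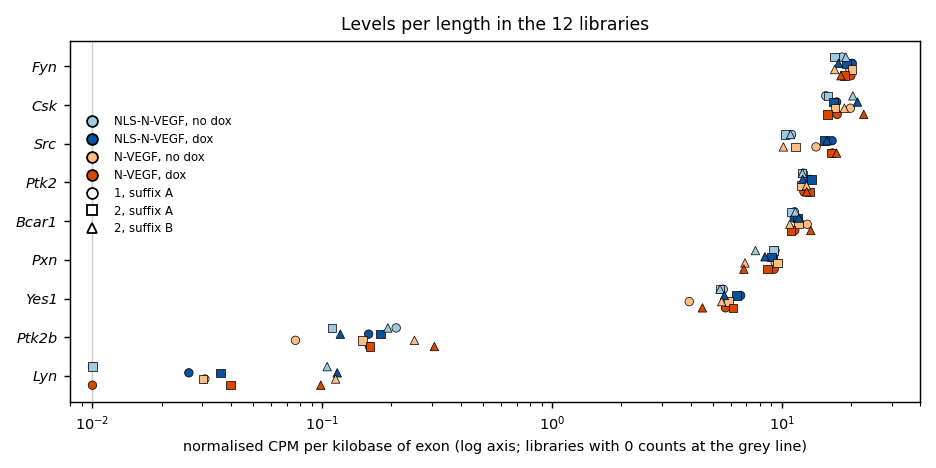
CPM per kilobase of exon (horizontal, log axis) of the 9 genes in the 12 libraries, with colours for the groups and shapes for the library label. Fyn to Yes1 lie between 3.95 and 22.7 CPM per kilobase, and Ptk2b and Lyn lie at or below 0.307, with the Lyn libraries at 0 counts drawn at the grey line.

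Src, the founding member of its family, lies on chromosome 2 (157418444 to 157471862, plus strand, GRCm38), and it was the member that rose with dox. Uninduced NLS-N-VEGF cells had levels of 48.1, 45.1 and 47.6 CPM (libraries 1 and 2 of suffix A and library 2 of suffix B, the order used throughout), and induced ones had 72.2, 67.0 and 68.5 CPM. Uninduced N-VEGF cells had 61.5, 49.9 and 44.3 CPM, and induced ones had 72.5, 71.6 and 75.5 CPM. All 6 libraries with dox were therefore above all 6 without, and the highest library without dox was the library 1 that stood apart. The counts behind these levels were 668 to 1349 per library. In bulk RNA a change in the number of cells that express a gene and a change in its RNA per cell cannot be told apart. In same-labelled pairs the ratio of dox to no dox was 1.502, 1.485 and 1.439 in NLS-N-VEGF cells and 1.18, 1.43 and 1.70 in N-VEGF cells.

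The window around the start of the Src transcript is shown because the question of the study was whether nuclear N-VEGF raises genes of the hypoxia response, whose factor HIF recognises a core of ACGTG or GCGTG. The window of Fyn, the most abundant family member here and one that was not called, is set beside it. Both are from RefSeq, build GRCm38.p6, on the plus strand, with 250 bases before and 50 bases after the transcript start, and capitals mark the letters ACGTG or GCGTG read on either strand. The start used lies 5849 bases inside the gene model of Src and 944 bases inside that of Fyn.
Src chr2:157424043-157424342: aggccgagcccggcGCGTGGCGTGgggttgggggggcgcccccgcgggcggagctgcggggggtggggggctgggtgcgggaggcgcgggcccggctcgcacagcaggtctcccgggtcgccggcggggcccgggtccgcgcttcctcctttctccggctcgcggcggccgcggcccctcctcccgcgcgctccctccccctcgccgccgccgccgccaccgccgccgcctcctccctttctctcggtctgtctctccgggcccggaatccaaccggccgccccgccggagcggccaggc
Fyn chr10:39369549-39369848: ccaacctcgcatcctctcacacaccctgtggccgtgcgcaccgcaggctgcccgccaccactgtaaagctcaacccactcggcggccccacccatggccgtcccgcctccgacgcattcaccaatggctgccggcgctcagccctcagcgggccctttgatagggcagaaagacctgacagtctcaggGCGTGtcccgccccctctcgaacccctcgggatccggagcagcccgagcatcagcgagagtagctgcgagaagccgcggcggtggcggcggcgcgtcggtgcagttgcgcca
The Src window held 2 matches, which lie side by side near its 5′ end, and the Fyn window held 1. Of 32851 promoter windows of the same length, 43.8% held at least 1 match and 20.6% held at least 2. These shares were not matched for base composition. G and C made up 82.3% of the Src window and 69.0% of the Fyn window, beside a median of 52.7% over all windows. Of the 9 genes, 5 had a window in the table. The other windows held 2 matches for Yes1, 2 and 3 for the 2 windows of Bcar1, and 0 and 1 for the 2 windows of Csk. A match is a description of the letters and not a measured binding site.

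The dox effect was tested in each population, to compare it with and without the localization sequence. With dox the insert was at 2.57 to 10.2 CPM in NLS-N-VEGF cells and at 7.55 to 17.9 CPM in N-VEGF cells. The part of this in the comparison of the populations was not tested. In NLS-N-VEGF cells Src was 1.48-fold higher with dox (log2 fold change 0.56, 95% interval 0.33 to 0.79), and in N-VEGF cells it was 1.41-fold higher (log2 fold change 0.50, 95% interval 0.26 to 0.73). Neither effect passed edgeR's quasi-likelihood test after adjustment over all genes (adjusted p 0.525 and 0.894), although Src ranked number 5 and number 8 of 13608 genes by p. In these contrasts 0.022% and 0.0367% of all genes were called. With the library label as a replicate block, Src rose in both populations. The edgeR adjusted p fell to 0.00869 in NLS-N-VEGF cells, at a log2 fold change of 0.56, and to 0.0241 in N-VEGF cells, at 0.50, where 0.125% and 0.11% of all genes were called. These calls of Src were lost without any 1 of 4 libraries in NLS-N-VEGF cells (edgeR adjusted p 0.0950 to 0.155) and any 1 of 7 libraries in N-VEGF cells (edgeR adjusted p 0.0596 to 0.328). With the suffix as a term in place of the block, Src was called in NLS-N-VEGF cells (edgeR adjusted p 0.0182) and not in N-VEGF cells (edgeR adjusted p 0.0509). DESeq2 without a block called it in NLS-N-VEGF cells (adjusted p 0.00623) and not in N-VEGF cells (adjusted p 0.0541). Of all 13608 genes, 15 and 13 were called with the suffix as a term, and 11 and 8 by DESeq2.

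Averaged over both populations, with 6 libraries on each side, Src rose 1.44-fold (log2 fold change 0.53, 95% interval 0.36 to 0.69, edgeR adjusted p 0.0224), when 0.0588% of all genes were called. With the replicate block the averaged log2 fold change was 0.53 (edgeR adjusted p 0.000215), against a background of 0.566%. Src was the only called gene among the 8 members tested in either fit. Src also stands in the study's own list of raised genes, which was chosen on these libraries, so its direction here is not independent evidence. For that list the paper asked for at least a 2-fold change, and it left out genes that induced N-VEGF also raised. Here, without the block, Src rose 1.48-fold under NLS-N-VEGF (upper 95% limit 1.73) and 1.41-fold under N-VEGF (upper 95% limit 1.65). Both rises were thus below 2-fold, and they were of similar size. The paper also states that separate real-time RT-PCR gave the same trend for the genes it names, and Src is among those. For the key genes it measured by PCR, it reports that dox had no effect in N-VEGF cells. Those PCR values were not part of the counts used here. The reason for the difference from the list was not tested. Without the library 1 that stood apart, the log2 fold change of Src was 0.56 in NLS-N-VEGF cells (edgeR adjusted p 0.0427), 0.63 in N-VEGF cells (0.0431) and 0.60 averaged (0.00166). In these fits 3, 3 and 9 of all 13947 genes were called. Without the suffix B library of the same group the values were 0.56 (edgeR adjusted p 0.178), 0.37 (0.602) and 0.46 (0.0342), with 3, 3 and 8 of all 13844 genes called. Without a block, no other single omission gave a call of Src in either population. Without a block the averaged call was lost when any 1 of 10 libraries was left out, with adjusted p between 0.0642 and 0.204, and it held when either library 1 of suffix A or the library of suffix B of uninduced N-VEGF cells was left out. With the block it held without any 1 of the 12 libraries (edgeR adjusted p 1.38e-06 to 0.00261).

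Within the libraries of suffix A the log2 fold change of Src was 0.57 in NLS-N-VEGF cells (edgeR adjusted p 0.0317), 0.36 in N-VEGF cells (edgeR adjusted p 0.394) and 0.47 averaged (edgeR adjusted p 0.0140). In these contrasts 109, 16 and 135 of all 13387 genes were called, in that order. Suffix B has 1 library per group and allows no test, and its ratios of dox to no dox were 1.44 in NLS-N-VEGF cells and 1.70 in N-VEGF cells.

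The rise of Src did not differ detectably between the populations. The log2 fold change in NLS-N-VEGF cells minus that in N-VEGF cells was 0.07 (95% interval -0.26 to 0.39, edgeR adjusted p 0.9999), and the 95% interval of the ratio of the dox effects ran from 0.834 to 1.31. With dox, Src was at 69.2 ± 2.65 CPM in NLS-N-VEGF cells and 73.2 ± 2.05 CPM in N-VEGF cells (SD, n = 3), a log2 difference of -0.08 (95% interval -0.31 to 0.15). Without dox it was at 46.9 ± 1.58 and 51.9 ± 8.74 CPM, a log2 difference of -0.14 (95% interval -0.38 to 0.09). Both the first and the last of these values rest on the library 1 that stood apart, without which the difference of the dox effects on Src was -0.073 and the log2 difference of uninduced cells was -0.0052. Without the suffix B library of uninduced N-VEGF cells they were 0.18 and -0.26. Across these 3 contrasts edgeR called no gene at all (0%) without the block, with 116, 160 and 82 genes at an unadjusted p under 0.05, 0 of the 8 members had an unadjusted p under 0.05, and DESeq2 called 0 members. With the block the shares of all genes called were 0% for the difference of the effects, 0.0147% with dox and 0% without dox, and none of them was a member.

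**Figure D2:**
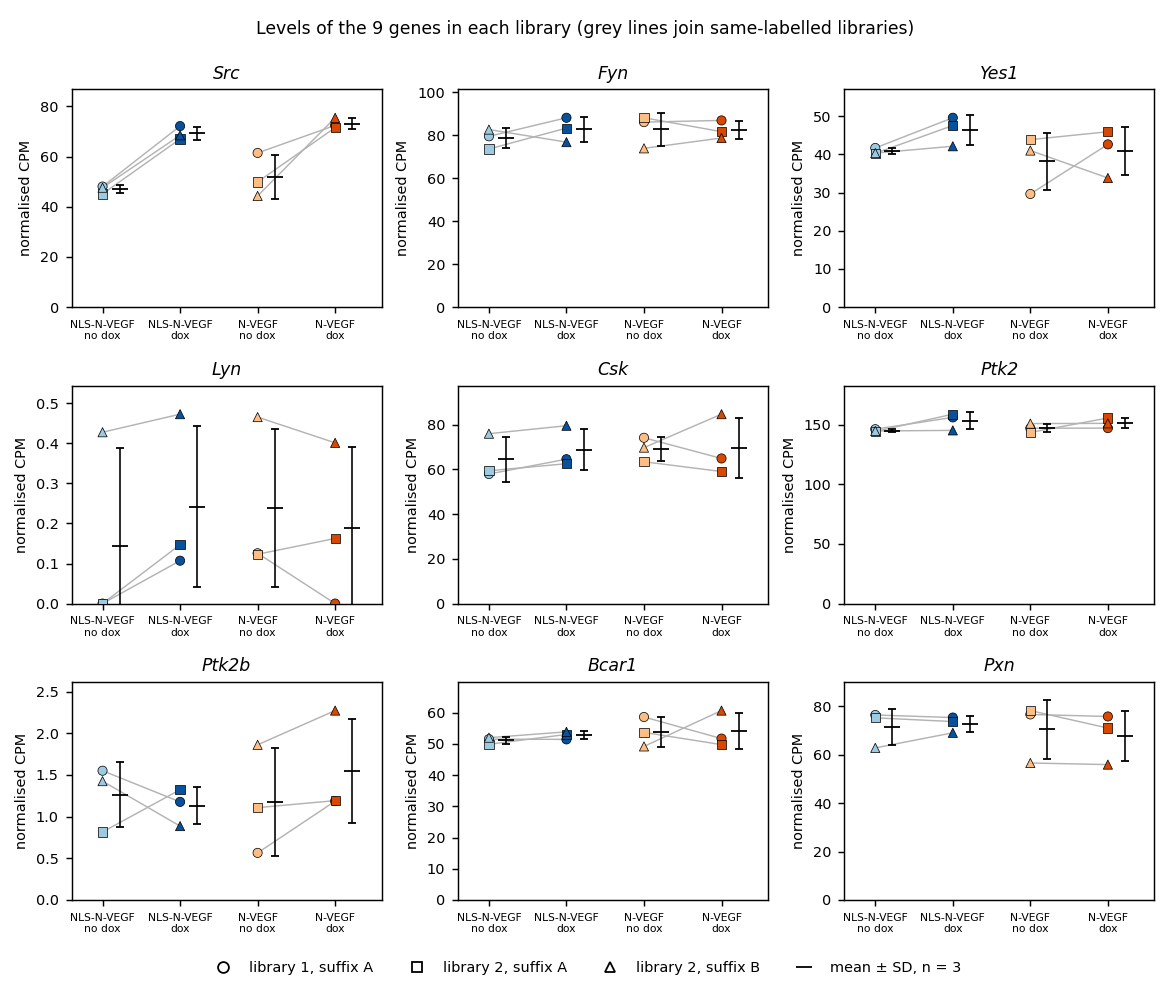
Normalised CPM (vertical, from 0) of each of the 9 genes by group, with shapes for the library label, grey lines between same-labelled libraries and black bars for the mean ± SD of 3 libraries. The 6 Src libraries with dox lie between 67.0 and 75.5 CPM, above the 6 without dox at 44.3 to 61.5 CPM, and no other gene separates that way.

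Fyn, a close relative of Src that also signals from lymphocyte and myelin-forming cell receptors, lies on chromosome 10 (39368855 to 39565381, plus strand). Its level was 79.5, 73.6 and 82.7 CPM in uninduced and 88.2, 83.4 and 76.8 CPM in induced NLS-N-VEGF cells, and 86.2, 88.2 and 74.0 CPM in uninduced and 86.9, 81.7 and 78.8 CPM in induced N-VEGF cells. The groups overlapped, and Fyn was higher with dox in 4 of 6 pairs. Its log2 fold change was 0.07 (95% interval -0.13 to 0.28) in NLS-N-VEGF cells and -0.00 (95% interval -0.21 to 0.20) in N-VEGF cells.

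Yes1, the third broadly expressed member, lies on chromosome 5 (32611171 to 32687057, plus strand), and 8.46% of its exon bases lie opposite the antisense gene Gm10461. Because the strand setting of the counting is not stated, reads of that stretch cannot be assigned. Its level was 41.7, 40.3 and 40.4 CPM in uninduced and 49.6, 47.6 and 42.1 CPM in induced NLS-N-VEGF cells, where each library with dox was above all of those without. It was 29.6, 43.9 and 41.0 CPM in uninduced and 42.6, 45.9 and 33.8 CPM in induced N-VEGF cells, with overlap. The log2 fold changes were 0.19 (95% interval -0.13 to 0.51) and 0.10 (95% interval -0.22 to 0.42), with edgeR adjusted p of 0.9998 and 0.9999. The lowest value of Yes1 was in the library 1 that stood apart, and without it the log2 fold change in N-VEGF cells was -0.06.

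As a share of the summed CPM per kilobase of Src, Fyn, Yes1 and Lyn, Src took 31.4% ± 0.483 in uninduced and 38.6% ± 1.37 in induced NLS-N-VEGF cells, and 32.9% ± 3.74 in uninduced and 40.7% ± 2.18 in induced N-VEGF cells (SD, n = 3). Fyn took 52.6% ± 0.939 in uninduced and 46.2% ± 0.913 in induced NLS-N-VEGF cells, and 52.7% ± 1.06 in uninduced and 46.0% ± 1.12 in induced N-VEGF cells. Fyn thus remained the larger share in each group, and these shares restate the levels above as parts of a sum.

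Lyn, a family member best known from B cells and myeloid cells, lies on chromosome 4 (3678115 to 3813122, plus strand), and 6.09% of its exon bases lie opposite Gm26857. It held 0, 0 and 6 counts in uninduced and 2, 2 and 8 in induced NLS-N-VEGF cells, and 2, 2 and 8 counts in uninduced and 0, 3 and 6 in induced N-VEGF cells. The 8 libraries of suffix A were all at or under 3 counts, and the 4 of suffix B held 6 to 8. Lyn did not pass the filter on low counts, so it has no test in the main fit and no fold between dox and no dox is given. Summed by suffix, it held 11 counts in 132928189 and 28 counts in 62550051, a ratio of 5.41 in favour of suffix B (exact 95% interval 2.61 to 12.04, counting error only). With no filter on low counts the suffix difference of Lyn had an edgeR adjusted p of 0.000294, in a fit where 6405 of all 31229 genes were called. The summed level of the 8 blood cell markers was 16.7 to 24.4 CPM in suffix A and 22.03 to 26.21 CPM in suffix B, and its part in the result was not tested.

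Csk, the kinase that shuts Src family members, lies on chromosome 9 (57626646 to 57653631, minus strand). Its level was 58.0, 59.4 and 76.0 CPM in uninduced and 64.6, 62.6 and 79.6 CPM in induced NLS-N-VEGF cells, and 74.2, 63.4 and 69.8 CPM in uninduced and 64.9, 59.1 and 84.7 CPM in induced N-VEGF cells. The SD within each group, 5.39 to 13.5 CPM, was larger than any difference between group means. The log2 fold change with dox was 0.10 (95% interval -0.23 to 0.43) and 0.01 (95% interval -0.32 to 0.34), and the replicate block left the first at 0.10 (95% interval -0.09 to 0.28).

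Ptk2, which encodes FAK, lies on chromosome 15 (73205102 to 73423280, minus strand) and was the steadiest of the 9. Its level was 146.2, 144.3 and 144.7 CPM in uninduced and 156.1, 158.8 and 145.2 CPM in induced NLS-N-VEGF cells, and 147.0, 143.5 and 150.9 CPM in uninduced and 147.1, 155.6 and 151.1 CPM in induced N-VEGF cells. It was higher with dox in 6 of 6 pairs, but by ratios of 1.1 at most. The log2 fold changes of 0.08 (95% interval -0.07 to 0.23) and 0.04 (95% interval -0.11 to 0.19) did not pass the test (edgeR adjusted p 0.9998 and 0.9999), and the intervals reached up to 1.17-fold and 1.14-fold.

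Ptk2b, the calcium-responsive relative of FAK, lies on chromosome 14 (66153257 to 66281052, minus strand) and was counted 9 to 34 times per library. Its level was 1.55, 0.816 and 1.43 CPM in uninduced and 1.18, 1.32 and 0.887 CPM in induced NLS-N-VEGF cells, and 0.565, 1.11 and 1.86 CPM in uninduced and 1.19, 1.19 and 2.27 CPM in induced N-VEGF cells. The log2 fold change was -0.17 (95% interval -1.13 to 0.79) and 0.38 (95% interval -0.56 to 1.32). With 1 library left out, and no block, the first value ranged from -0.41 to 0.014 and the second from 0.0052 to 0.85. The second was 0.048 without the library 1 that stood apart, 0.0052 without the suffix B library of induced N-VEGF cells and 0.85 without that of uninduced N-VEGF cells. Both intervals include changes in either direction.

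Bcar1, the docking protein whose phosphorylated stretch recruits Crk, lies on chromosome 8 (111710474 to 111743809, minus strand). Its level was 51.5, 49.9 and 52.0 CPM in uninduced and 51.4, 53.0 and 53.8 CPM in induced NLS-N-VEGF cells, and 58.6, 53.7 and 49.2 CPM in uninduced and 51.7, 49.7 and 60.7 CPM in induced N-VEGF cells. The groups overlapped, and the log2 fold changes were 0.05 (95% interval -0.16 to 0.25) and 0.01 (95% interval -0.20 to 0.21).

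Pxn, which encodes paxillin, lies on chromosome 5 (115506676 to 115555987, plus strand). Its level was 76.4, 75.2 and 62.8 CPM in uninduced and 75.3, 73.7 and 69.0 CPM in induced NLS-N-VEGF cells, and 76.6, 78.2 and 56.6 CPM in uninduced and 75.8, 71.0 and 55.9 CPM in induced N-VEGF cells. In each group the library of suffix B was the lowest. The log2 fold changes with dox were 0.02 (95% interval -0.28 to 0.33) and -0.06 (95% interval -0.37 to 0.25).

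**Figure D3:**
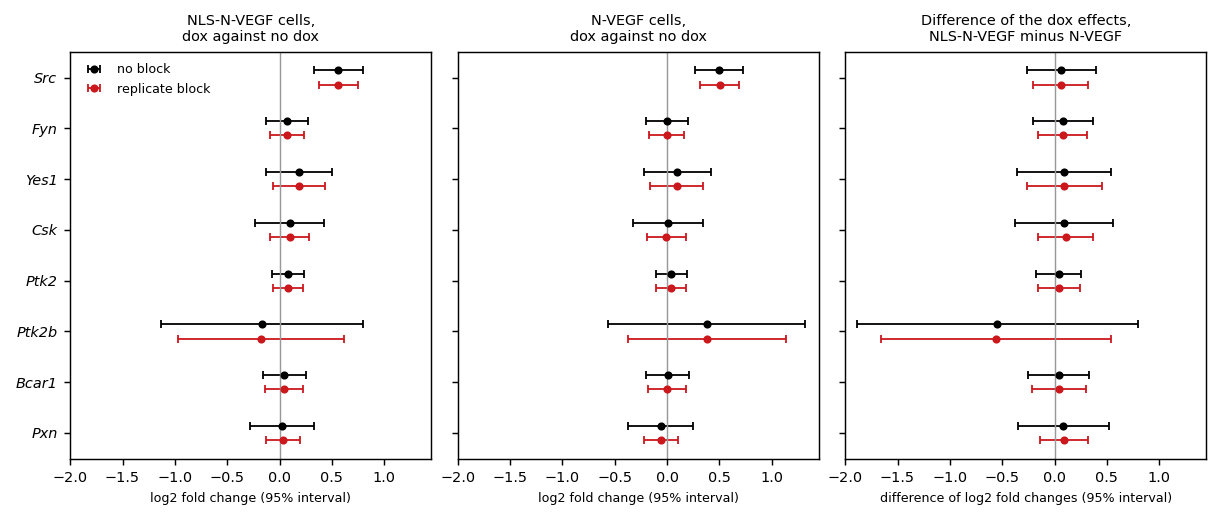
Log2 fold change with dox in each population and the difference between them (horizontal, 95% intervals) for the 8 tested genes, without a block (black) and with the replicate block (red). The intervals of Src lie above 0 in both populations, the intervals of the other 7 genes include 0, and all intervals of the difference include 0.

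The median log2 fold change of the 8 tested members was 0.08 in NLS-N-VEGF cells and 0.02 in N-VEGF cells, beside medians of 0.00 and 0.00 over all genes tested. The members other than Src lay between -0.17 and 0.19 in NLS-N-VEGF cells and between -0.06 and 0.38 in N-VEGF cells, and none had an unadjusted p under 0.05 in either fit.

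The members were then compared between the label suffixes, with group in the model. Csk was higher and Pxn lower in the libraries of suffix B, 2 of 8 members (25%) beside the 45.6% of all genes that were called. Csk lay at 69.8 to 84.7 CPM in the 4 libraries of suffix B and at 58.0 to 74.2 CPM in the 8 of suffix A, a log2 difference of 0.29 (95% interval 0.15 to 0.44, edgeR adjusted p 0.00187). The overlap came from the uninduced N-VEGF cells, whose library 1 stood at 74.2 CPM. Pxn lay at 55.9 to 69.0 CPM in suffix B and at 71.0 to 78.2 CPM in suffix A, with no overlap, a log2 difference of -0.30 (95% interval -0.42 to -0.18, edgeR adjusted p 0.000471). Both calls held under each of the 18 alternatives run for this contrast.

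The other members did not pass the threshold between the suffixes. Src had a log2 difference of -0.06 (95% interval -0.21 to 0.09), with medians of 58.1 CPM in suffix B and 64.3 CPM in suffix A. Fyn had a log2 difference of -0.09 (95% interval -0.22 to 0.03), Yes1 of -0.11 (95% interval -0.31 to 0.09), Ptk2 of -0.02 (95% interval -0.12 to 0.08) and Bcar1 of 0.04 (95% interval -0.09 to 0.17). Ptk2b had the largest difference, 0.52, but with an interval from -0.04 to 1.07. Leaving out a single library made a call of Fyn (-0.17, edgeR adjusted p 0.0351) when the suffix B library of uninduced NLS-N-VEGF cells was dropped. It made a call of Yes1 (-0.19, edgeR adjusted p 0.00973) when the library 1 that stood apart was dropped. Ptk2b was called (0.79, edgeR adjusted p 0.0267) when the suffix B library of induced NLS-N-VEGF cells was dropped. Among all genes, 5296 of 13893 were called in the fit that called Fyn, 7200 of 13947 in that of Yes1 and 5942 of 13852 in that of Ptk2b.

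**Figure D4:**
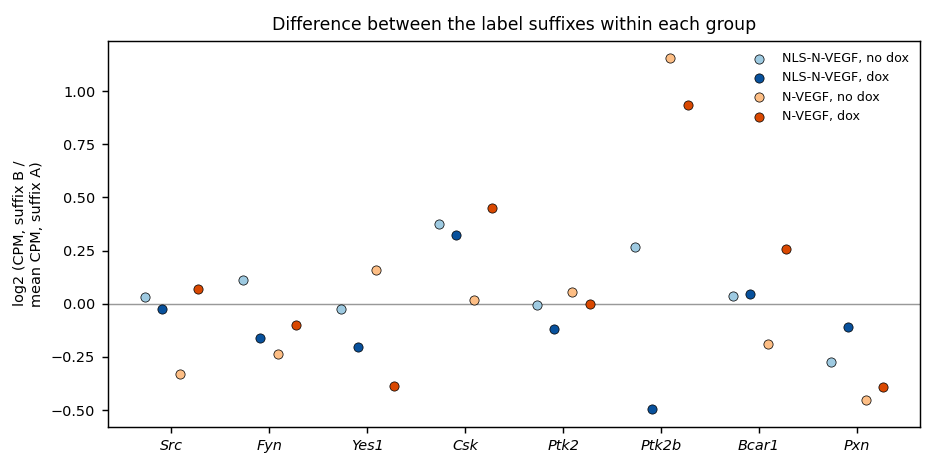
Log2 ratio of the CPM in the library of suffix B to the mean CPM of the 2 libraries of suffix A (vertical) within each group, for the 8 tested genes. The 4 Pxn points lie between -0.45 and -0.11, the 4 Csk points between 0.02 and 0.45, and the Ptk2b points spread from -0.50 to 1.16.

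The genes around the members were read from 6 lists of 82 genes, of which 70 passed the filter. In the dox contrasts edgeR called 0 of them in NLS-N-VEGF cells, in N-VEGF cells and averaged, with and without the block, and DESeq2 called 0. Without the block, in edgeR, 2 had an unadjusted p under 0.05 in NLS-N-VEGF cells, 2 in N-VEGF cells and 1 averaged, and with it 4, 5 and 7. Of all 13608 genes tested, 318, 201 and 423 had such a p without the block, and 989, 735 and 1266 with it. The median log2 fold change of the 70 genes was 0.04 in NLS-N-VEGF cells and -0.03 in N-VEGF cells, beside 0.00 and 0.00 over all genes. The difference of the dox effects and both comparisons of the populations also gave 0 calls, and the genes at an unadjusted p under 0.05 numbered 0 in each of them, or 2, 3 and 0 once the block was used. Over all genes the numbers were 116, 160 and 82, or 464, 621 and 499 with the block.

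Among further kinases of the Src group, Frk passed the filter and was tested. Fgr and Blk, kinases of myeloid and B cells, held 0 counts in all libraries, and Lck, the kinase of T cells, held 1 to 12 counts per library. Frk, an epithelial relative, was at 10.5 ± 0.332 CPM in uninduced and 13.1 ± 1.25 CPM in induced NLS-N-VEGF cells, and at 10.3 ± 0.853 and 12.9 ± 1.79 CPM in N-VEGF cells (SD, n = 3). Its averaged log2 fold change was 0.32 (unadjusted p 0.00424), which did not pass adjustment without the block (edgeR adjusted p 1.0) or with it (edgeR adjusted p 0.109).

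Between the suffixes 43 of the 70 list genes were called (61.4%, against 45.6% of all genes), 34 lower and 9 higher in suffix B, where 3192 of all genes were lower and 3015 higher, with a median log2 difference of -0.16 beside 0.01 over all genes. Among 12 tested regulators of Src and FAK, 5 were lower and 0 higher (41.7% called, a share below that of all genes). The largest differences were in the ubiquitin ligases Cblb, at 58.2 ± 3.23 CPM in suffix A and 40.01 ± 6.89 CPM in suffix B, and Cbl, at 108.5 ± 9.69 and 82.4 ± 9.06 CPM. Among 2 tested relatives of Cas and paxillin, Nedd9, the Cas relative, was lower (log2 difference -0.60) and Tgfb1i1, the paxillin relative Hic-5, was higher (log2 difference 0.59). Among 18 tested scaffold genes 8 were lower and 4 higher (66.7% called), with the largest differences in Fermt3 (0.63), a kindlin of blood cells at only 2.04 CPM, and in the vinculin-binding Sorbs3 (0.50).

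Among 22 tested effectors 11 were lower and 1 higher (54.5% called), with the largest differences in the guanine nucleotide exchange factor Arhgef28 (-0.72, at 2.98 CPM) and the GTPase-activating protein Arhgap26 (-0.45). Among 15 tested Src substrates 9 were lower and 3 higher (80% called). Of these, Sh3pxd2a and Sh3pxd2b, the podosome scaffolds that Src phosphorylates, fell furthest: Sh3pxd2a from 637.8 ± 30.6 CPM (SD, n = 8) in suffix A to 384.9 ± 31.1 CPM (SD, n = 4) in suffix B, and Sh3pxd2b from 186.3 ± 14.8 to 120.7 ± 18.1 CPM. The log2 difference of Sh3pxd2a was -0.73 (edgeR adjusted p 3.23e-07) and that of Sh3pxd2b -0.63 (edgeR adjusted p 7.71e-06). The list genes share the libraries, so their counts are not independent of each other.

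The genes whose levels most resembled those of each member were found by Pearson's r of log2(CPM + 2) over the 12 libraries, among 12055 other genes. For Src these were the myelin protein gene Pmp22 (r = 0.927), the carbonyl reductase Cbr2 (r = 0.919) and the glutathione transferase Gstm5 (r = 0.901). After subtraction of the mean of each suffix they were Wfs1 (r = 0.948), Tpst2 (r = 0.946) and Tinagl1 (r = 0.941). For the other members they were Apobr for Fyn (r = 0.894), Trpm7 for Yes1 (r = 0.944), Map6 for Csk (r = 0.976) and Pcgf5 for Ptk2 (r = 0.901). Smim26 was nearest to Ptk2b (r = 0.912), Unc45a to Bcar1 (r = 0.909) and Gm12505 to Pxn (r = 0.970). By Spearman's rank correlation the nearest gene was the same only for Csk and Bcar1. These are descriptions over libraries that share groups and suffixes, and no other member was the nearest gene of a member.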

How the data were processed

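RNA was sequenced as single reads from TruSeq libraries. The authors trimmed reads with Trim Galore, aligned them with TopHat2 2.1.0 and Bowtie2 2.2.6 to GRCm38 and counted them per gene with HTSeq 0.6.1, and the strand option is not given in the sources used here. The deposited values are raw counts, with no normalization.

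Counts were tested in R 4.3.3 with edgeR 4.0.16 (filterByExpr by group, TMM scaling, 1 mean per group, quasi-likelihood F test, two-sided). Benjamini-Hochberg adjustment ran over all 13608 tested genes of a contrast, with calls at an adjusted p under 0.05. The script was tested on simulated data. Intervals of fold changes are from the fit's t quantiles. The alternatives were DESeq2 1.42.0, other scalings, filters and blocks, subsets by suffix, and leaving out each library. The members and lists were chosen with earlier results of these data known. Every member was named, list genes by being called and size.

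Same-labelled libraries were treated as pairs because their deviations from the group means correlated above 0.1 in 18 of 18 pairs (mean 0.590, lowest 0.400, over 12057 genes). Of 36 differently labelled pairs 12 were also above 0.1 (mean -0.247, highest 0.678). Same-labelled libraries also share a suffix, and 45.6% of genes differed between the suffixes, which by itself can make them correlate. The criterion therefore does not show that library number pairs the libraries. The common biological coefficient of variation was 15.5% without and 7.86% with the block. No libraries of a group agreed within sampling noise. Exon lengths and coordinates are from GENCODE M21 and windows from RefSeq. The intervals of fold changes include the spread between libraries, whereas the interval of the Lyn ratio and the floors cover counting error only.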

Additional observations from a re-analysis of the deposited data

How the results depend on the processing

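Of 1721 recomputed log2 fold changes of the tested members, 1667 kept their direction and side of the threshold (a change of sign in an uncalled value that moved by no more than its SE was not counted), 26 gained a call, 10 lost it and 18 changed sign, 0 of these being called. The dox effect of Src was above 0 in 99 of 99 recomputations in the 3 dox contrasts. The cause of the changes was not tested.

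In NLS-N-VEGF cells the number of members called was 0 and became 1 (Src) with the replicate block, with the suffix as a term, with DESeq2 with or without the block, with no filter and with suffix A only. Of all 13608 genes, 17 were called with the block, 15 with the suffix term, 11 with DESeq2 and 43 with DESeq2 and the block. With no filter 53 of 31229 genes were called, and with suffix A only 109 of 13387. In N-VEGF cells the number of members called was 0 and became 1 (Src) with the replicate block, in edgeR or DESeq2. Of all 13608 genes, 15 were called there in edgeR and 31 in DESeq2. With 1 library left out, with or without the block, the number of members called ranged from 0 to 1 in each population and from 0 to 1 averaged. Of all genes, 0 to 3 were called without the block and 6 to 118 with it in NLS-N-VEGF cells. In N-VEGF cells the ranges were 1 to 7 and 8 to 33, and averaged they were 5 to 9 and 31 to 202. Under the block Src lost its call in NLS-N-VEGF cells without any 1 of the 4 libraries of suffix A of these cells (edgeR adjusted p 0.0950 to 0.155). In N-VEGF cells it lost its call without any 1 of 7 libraries (0.0596 to 0.328), which were library 2 of suffix A in each group and the suffix B libraries of all groups but induced NLS-N-VEGF cells. The block changed no other member's call. List genes called went from 0 to 1 (Sos1) with suffix A only, in NLS-N-VEGF cells (0.39, edgeR adjusted p 0.0317) and averaged (0.25, edgeR adjusted p 0.0420). In these contrasts 109 and 135 of all 13387 genes were called. Averaged with 1 library left out, list genes called ranged from 0 to 1. That call was Frk (0.35, edgeR adjusted p 0.0460) under the block without the suffix B library of uninduced N-VEGF cells, where 172 of all 13844 genes were called. Of all genes, the block raised calls from 3 to 17, from 5 to 15 and, averaged, from 8 to 77.

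Changes of sign, in log2 units, were as follows. With suffix A only, Csk was at -0.16 and Bcar1 at -0.16 for dox in N-VEGF cells, Bcar1 at -0.062 averaged, and Ptk2b at 0.062 between the populations with dox. With 1 library left out, the values for dox in N-VEGF cells ranged from -0.093 to 0.21 for Yes1, from -0.16 to 0.11 for Csk and from -0.12 to 0.081 for Bcar1. Between the populations with dox they ranged from -0.13 to 0.15 for Csk, from -0.67 to 0.0058 for Ptk2b and from -0.089 to 0.070 for Bcar1, and without dox from -0.092 to 0.22 for Yes1 and from -0.13 to 0.10 for Pxn. Between the suffixes they ranged from -0.11 to 0.021 for Src and from -0.039 to 0.11 for Bcar1. Depth limits Lyn and Ptk2b most.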
